A study of Homo sapiens with 4 samples.

Results

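The SOCS and PIAS genes encode inhibitors of cytokine signalling. The 10 genes described here are SOCS2, SOCS4, SOCS5, SOCS6, SOCS7, CISH, PIAS1, PIAS2, PIAS3 and PIAS4, among 60554 genes in the count table. They were chosen by name, and the group was picked because SOCS6 and PIAS3 stood high on the control beads only. The values of those 2 genes on the control beads are therefore a description and support nothing. All 10 were among the 12662 genes whose normalised counts averaged 50 or more.

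The RNA came from IGROV1-R10, a human ovarian cancer line transfected at 60 nM with an miRNA duplex that carried biotin. The 4 groups were the miR-491-5p pull-down (the miR-491-5p beads), the control pull-down (the control beads), the miR-491-5p input and the control input. The control duplex was a cel-miR, an miRNA of the worm Caenorhabditis elegans, with the same tag. The input was the 10% of each nucleus-free lysate that was set aside, and the pull-down was the RNA that streptavidin beads held from the rest after 4 h and 5 washes. Each group was 1 library made from RNA pooled over 3 experiments, so differences could not be checked against replicates and no p-values were computed. Only counting error is covered by the 95% intervals, and because reads carry no molecular identifiers they may understate even that.

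Cytokine receptors signal through JAK kinases, which phosphorylate STAT transcription factors. SOCS proteins and CISH bind phosphorylated receptors or kinases through an SH2 domain, and their SOCS box recruits elongins and a cullin for ubiquitination of the bound protein. Several SOCS genes are themselves induced by STAT factors, which closes a feedback loop. PIAS proteins act in the nucleus as SUMO ligases, and PIAS3 was named for its inhibition of STAT3.

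The mature sequence of the miRNA used to pull RNA down is shown because its seed, bases 2 to 8 in capitals, is the part that selects most targets. It was taken from RefSeq (GRCh38.p14, chr9:20716120-20716141, plus strand). No other human miRNA in the RefSeq table shared this seed. No transcript sequence was used here, so matches to the seed in the 10 genes were not counted.
hsa-miR-491-5p: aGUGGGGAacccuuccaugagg

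SOCS6, an adaptor that targets receptor kinases such as KIT and the insulin receptor signalling chain, gave the most extreme values of the group. It is listed as ENSG00000170677 on chromosome 18 (hg38, 70288901 to 70330200, plus strand), and the table gives 5984 exon bases. Its normalised count was 5277 on the miR-491-5p beads, 90964 on the control beads, 5136 in the miR-491-5p input and 2604 in the control input. The control pull-down thus stood far above the other libraries, and the control input was the lowest. In raw counts SOCS6 ranked 2475th of all genes on the miR-491-5p beads, 22nd on the control beads, 3018th in the miR-491-5p input and 4879th in the control input.

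The miR-491-5p pull-down of SOCS6 lay 0.04 above its input on the log2 scale (-0.01 to 0.09), an interval that includes 0. The control pull-down lay 5.13 (5.06 to 5.19) above its input, a 34.9-fold difference and the highest among 12662 genes. SOCS6 was also higher in the miR-491-5p input than in the control input, by 0.98 (0.90 to 1.05), or 1.97-fold, which was the 97th highest input ratio. Measured against the miR-491-5p input in place of the control input, a comparison chosen after the data had been seen, the control pull-down stood 4.15 above it.

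PIAS3 (ENSG00000131788, chromosome 1, 145848522 to 145859836, minus strand, 4805 exon bases) had the same highest and lowest library at a lower level. Its normalised count was 811 on the miR-491-5p beads, 3896 on the control beads, 877 in the miR-491-5p input and 374 in the control input. The control pull-down again stood apart at the top, and the miR-491-5p pull-down and input were close. The miR-491-5p pull-down over input was -0.11 (-0.24 to 0.02), a value that became 0.21 with scaling by total counts. The control pull-down over input was 3.38 (3.21 to 3.55), the 19th highest among all genes. Between the inputs PIAS3 was 2.34-fold higher with miR-491-5p, at 1.23 (1.03 to 1.42). Against the miR-491-5p input its control pull-down stood 2.15 above.

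The third gene high on the control beads was SOCS5, which has been linked to turnover of the EGF receptor. SOCS5 (chromosome 2, 46698952 to 46763129, plus strand) had normalised counts of 6555 on the miR-491-5p beads, 12246 on the control beads, 5657 in the miR-491-5p input and 5047 in the control input. The SOCS5 pull-down over input was 0.21 (0.16 to 0.26) for miR-491-5p, against 1.28 (1.23 to 1.33) for the control. Here the inputs differed little, by 0.16 (0.11 to 0.22), and the control pull-down was the highest library. SOCS5, SOCS6 and PIAS3 were the 3 members that passed 2-fold over input with the control miRNA while staying within 2-fold of it with miR-491-5p. Of all measured genes 744, or 5.88%, did the same. SOCS6 and PIAS3 were picked for this pattern, so nothing is read from the members' count beside that share.

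**Figure D1:**
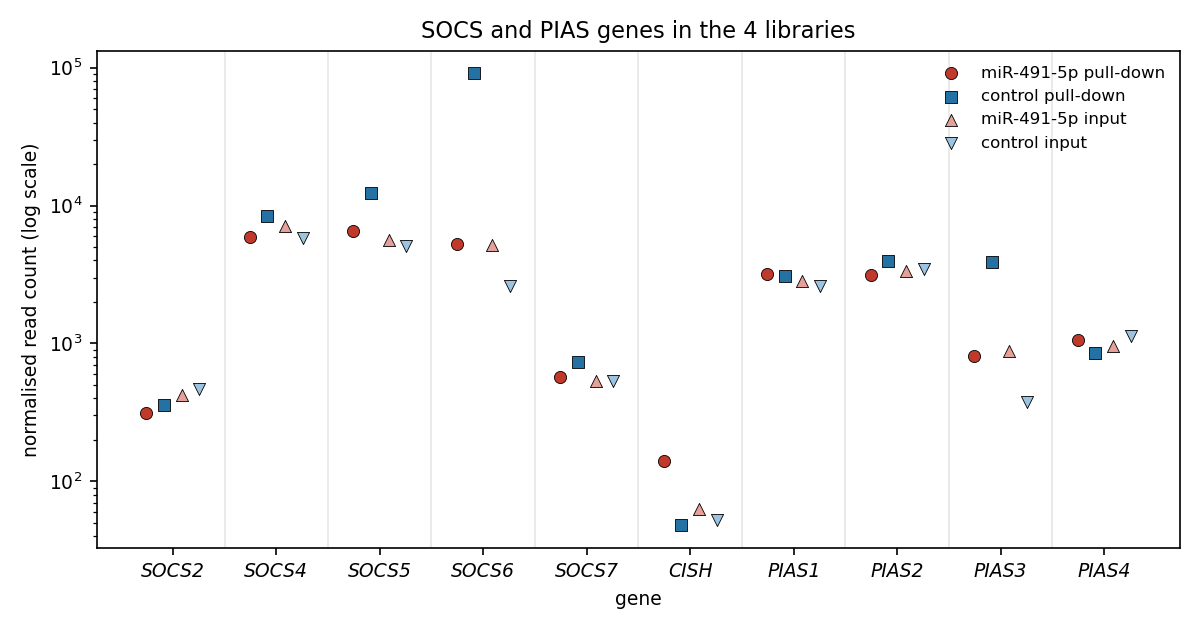
Normalised read counts (log axis) of the 10 genes, with 1 point for each of the 4 libraries (miR-491-5p pull-down, control pull-down, miR-491-5p input, control input) and no error bars. SOCS6 at 90964 and PIAS3 at 3896 stand out in the control pull-down, and CISH is highest in the miR-491-5p pull-down at 141.

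SOCS4, the close relative of SOCS5, had normalised counts of 5925 on the miR-491-5p beads, 8419 on the control beads, 7075 in the miR-491-5p input and 5831 in the control input. Its highest library was also the control pull-down. Pull-down over input was -0.26 (-0.30 to -0.21) on the miR-491-5p beads, which became 0.06 with total counts, and 0.53 (0.48 to 0.58) on the control beads. SOCS7, which binds the adaptor NCK, had 571 on the miR-491-5p beads, 730.0 on the control beads, 533 in the miR-491-5p input and 532 in the control input. The SOCS7 inputs were nearly equal, and the pull-down ratio was -0.35 (-0.50 to -0.21).

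CISH and SOCS2 are the members best known as STAT5-induced feedback inhibitors. CISH was the only member past 2-fold higher on the miR-491-5p beads, and it rested on few reads. Its raw counts were 174 on the miR-491-5p beads, 54 on the control beads, 60 in the miR-491-5p input and 41 in the control input. Normalised, these were 141, 48.0, 62.7 and 52.7 in the same libraries, so the miR-491-5p pull-down alone stood apart. Their mean of 76.0 lies near the minimum of 50. Its miR-491-5p pull-down over input was 1.15 (0.73 to 1.58), and its control pull-down over input was -0.13 (-0.72 to 0.45). SOCS2 had 310.5 on the miR-491-5p beads, 355 on the control beads, 422 in the miR-491-5p input and 470.3 in the control input. Both SOCS2 pull-downs lay below their inputs by like amounts, at -0.44 (miR-491-5p) and -0.40 (control).

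The start of CISH overlaps another gene. CISH (ENSG00000114737, chromosome 3, 50606490 to 50611831, minus strand) shares 218 of its 5112 exon bases with MAPKAPK3, a stress-activated kinase gene on the plus strand, and the counting ignored strand although the library kit was stranded. Reads that overlap both genes were left out by the counting, per the file headers. The enrichment of MAPKAPK3, as defined further on, was 1.19 (1.09 to 1.29), close to that of CISH. Its miR-491-5p pull-down over input was 0.58 and its control pull-down over input -0.61. Whether reads of MAPKAPK3 add to the CISH count was not tested.

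The RefSeq promoter window of CISH is printed because it covers the start of CISH and carries the motif by which STAT5 is known to act. The window is chr3:50611725-50612024 on GRCh38.p14, minus strand, from 250 bases before to 50 after the RefSeq start, and capitals mark TTCNNNGAA, which reads the same on both strands. The motif occurs 4 times without overlap, at bases 10 to 18, 21 to 29, 122 to 130 and 139 to 147 from the 5′ end. Among 35116 windows of RefSeq promoters, 7.66% held at least 1 match and 0.456% held 2 or more. The 9 windows found for 7 of the 10 genes held no other match, and windows for SOCS6 and PIAS3 were among them. A match describes letters in a window and is not shown to be a binding site.
CISH promoter: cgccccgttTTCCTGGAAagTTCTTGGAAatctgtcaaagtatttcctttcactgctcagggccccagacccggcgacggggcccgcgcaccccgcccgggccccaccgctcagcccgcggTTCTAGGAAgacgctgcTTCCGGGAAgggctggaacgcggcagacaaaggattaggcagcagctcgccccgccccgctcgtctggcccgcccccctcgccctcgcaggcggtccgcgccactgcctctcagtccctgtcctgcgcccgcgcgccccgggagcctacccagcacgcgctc

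PIAS1, PIAS2 and PIAS4 did not follow PIAS3. PIAS1, a SUMO ligase like the others, had normalised counts of 3196 on the miR-491-5p beads, 3071 on the control beads, 2818 in the miR-491-5p input and 2593 in the control input. PIAS2, a coregulator of the androgen receptor, had 3115 on the miR-491-5p beads, 3982 on the control beads, 3340.3 in the miR-491-5p input and 3476 in the control input. PIAS4, also called PIASy, had 1063 on the miR-491-5p beads, 854 on the control beads, 953 in the miR-491-5p input and 1131 in the control input. Across the 4 libraries none of the 3 genes spanned 2-fold, and PIAS4 had its lowest value in the library where PIAS3 had its highest. PIAS1 shares 30.3% of its exon bases with CALML4 on the other strand, so its count comes from the remaining exons. PIAS3 shares 432 exon bases, or 8.99%, with NUDT17, whose counts were 25 in each pull-down, 39 in the miR-491-5p input and 24 in the control input.

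The member list does not hold every SOCS gene, so shares of summed counts are over the members only. SOCS6 made up 28.1% of the summed normalised counts of the 6 SOCS and CISH genes on the miR-491-5p beads, 80.7% on the control beads, 27.2% in the miR-491-5p input and 17.9% in the control input. PIAS3 made up 9.91%, 33.0%, 11.0% and 4.94% of the PIAS sum in the miR-491-5p pull-down, control pull-down, miR-491-5p input and control input.

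The remaining members lie on chromosome 12 (SOCS2, 93569814 to 93583487, plus strand), chromosome 14 (SOCS4, 55027230 to 55049488, plus strand) and chromosome 17 (SOCS7, 38352228 to 38405593, plus strand). PIAS1 lies on chromosome 15 (68054179 to 68198603, plus strand), PIAS2 on chromosome 18 (46803224 to 46920160, minus strand) and PIAS4 on chromosome 19 (4007646 to 4039386, plus strand). Levels of different genes were compared per kilobase of exon in the inputs. SOCS5 was highest, with 1124 normalised counts per kilobase in the miR-491-5p input and 1003 in the control input, followed by SOCS4 with 1004 and 828. SOCS6 had 858 and 435, so its distance from SOCS4 depended on which input was read. PIAS4 had 261 and 310.1 and PIAS1 had 261 and 241. Exon bases shared with other genes were not taken out of the lengths. PIAS1 shares 30.3% of its exon bases with CALML4, so its values per kilobase are understated. Its order beside PIAS4 is therefore not given. PIAS2 with 191 and 198 and PIAS3 with 182 and 77.8 came next. SOCS2 with 62.3 and 69.4, SOCS7 with 61.8 and 61.7 and CISH with 12.3 and 10.3 were lowest. In the control pull-down the order was different at the top, as SOCS6 reached 15201 per kilobase and SOCS5, the next, 2433.

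The enrichment named in the study's design is a ratio of ratios, miR-491-5p over control in the pull-downs divided by the same in the inputs. SOCS6, at -5.09 (-5.17 to -5.00), was the second lowest of all genes and PIAS3, at -3.49 (-3.71 to -3.27), the fifth lowest. SOCS5 was the third member past 2-fold lower, at -1.07 (-1.14 to -0.99), and CISH the only one past 2-fold higher, at 1.29 (0.57 to 2.01). Of all genes 4.46% were higher and 5.32% lower by the same rule, at least 2-fold with an interval that excludes 0. Nothing is read from these shares beside the members' 1 and 3, since the group was picked on a part of this contrast.

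Below 2-fold, SOCS4 had an enrichment of -0.79 (-0.86 to -0.72), SOCS7 of -0.36 and PIAS2 of -0.30, each with an interval below 0. PIAS4 had 0.56 (0.38 to 0.74). The intervals of SOCS2 and PIAS1 included 0. With total counts SOCS5 stood at -0.89 and was no longer past 2-fold. The median of the 10 members was -0.33, and the median of all genes was 0.00. With total counts in place of size factors the median of all genes moved by 0.18, and 66.7% of the called genes were higher, against 45.6%.

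For SOCS6 and PIAS3 the pull-down ratio lay below 0 and the input ratio above it. In the pull-downs alone, which use neither input, SOCS6 was 17.2-fold lower with miR-491-5p, at -4.11 (-4.14 to -4.07), and PIAS3 4.80-fold lower, at -2.26 (-2.36 to -2.16). CISH was 2.89-fold higher there, at 1.53 (1.09 to 1.97), and SOCS5 missed 2-fold at -0.90 (-0.94 to -0.86). The members past 2-fold were thus 1 higher and 2 lower, beside 2.5% and 3.17% of all genes. The lower ones were SOCS6 and PIAS3, and the control pull-down in this ratio is part of the contrast by which they were picked. Nothing is read from these shares. With total counts 67.0% of the genes called between the pull-downs were higher, against 44.0%, and the median of all genes moved by 0.16.

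In the inputs PIAS3 was the only member past 2-fold, where 0.727% of all genes were higher and 0.513% lower. The control input is part of the contrast by which SOCS6 and PIAS3 were picked, and a low value there raises both. Their input ratios are therefore a description, and nothing is read from these shares. SOCS6 at 0.98 lay just inside 2-fold and SOCS4 followed at 0.28 (0.22 to 0.33). PIAS4 was lower with miR-491-5p, at -0.25 (-0.38 to -0.11). The remaining 6 members lay between -0.16 and 0.25.

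**Figure D2:**
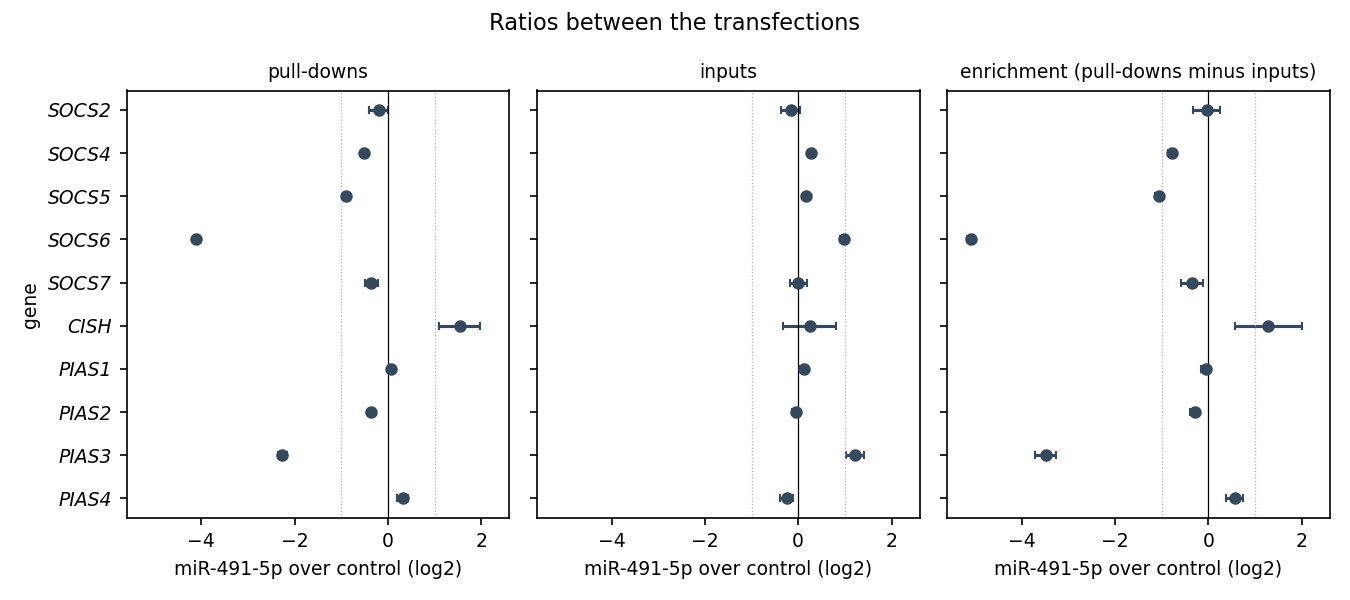
Log2 ratios of miR-491-5p over control for the 10 genes as pull-down ratio, input ratio and enrichment, with bars for the 95% counting interval and dotted lines at 2-fold. SOCS6 lies at -4.11, 0.98 and -5.09, and PIAS3 at -2.26, 1.23 and -3.49, so the input ratio adds to the size of the enrichment in both genes.

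On the miR-491-5p beads CISH was the only member past 2-fold over the input, where 5.34% of all genes were higher and 4.96% lower. The other 9 lay between -0.44 for SOCS2 and 0.21 for SOCS5, and the median of the 10 was 0.07 against -0.15 for all genes. On the control beads 3 members were past 2-fold higher and 0 lower, where 8.61% of all genes were higher and 10.0% lower. The median of the 10 was 0.35 there, against -0.15 for all genes. SOCS6 and PIAS3 are among the 3 and were picked by this contrast, so nothing is read from the count or the median. With total counts the medians of all genes moved by 0.32 on the miR-491-5p beads and 0.14 on the control beads, and 91.0% and 62.9% of the called genes were then higher, against 51.8% and 46.2%.

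**Figure D3:**
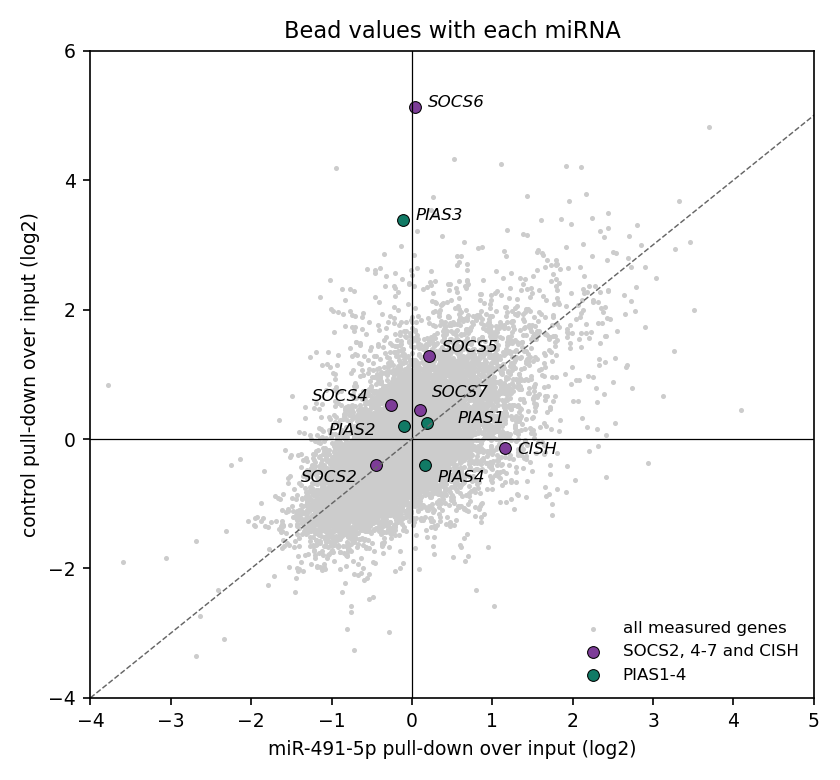
Log2 pull-down over input with miR-491-5p (x axis) and with the control miRNA (y axis) for the 10 genes, over all 12662 measured genes in grey (10 lie beyond the axes), with a dashed line of equal values. SOCS6 and PIAS3 lie near 0 on the x axis and at 5.13 and 3.38 on the y axis, and CISH lies at 1.15 and -0.13.

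The cells were checked against lists of marker genes. Of 10 markers of ovarian carcinoma epithelium 9 were matched by name, and all 9 of these passed the minimum. They summed to normalised counts of 87680 on the miR-491-5p beads, 97153 on the control beads, 121619 in the miR-491-5p input and 154075 in the control input. The 9 hepatocyte markers, which an ovarian line should lack, summed to 27.5, 20.4, 20.9 and 3449 in the same libraries, and FGA was at 0 in all libraries but the control input. In bulk RNA, fewer cells of a type and less RNA per cell cannot be told apart. The 5 fibroblast markers summed to 37.2, 37.3, 288 and 744, and the 5 immune markers to 14.6, 12.4, 19.9 and 70.7. The control input thus stood apart, and it is also the library in which SOCS6 and PIAS3 were lowest. Its part in their input ratios was not tested. The pull-down ratios use neither input.

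The genes whose 4 libraries were most like those of SOCS6 were named by the distance between log2 normalised counts after each gene's own mean had been taken off. JUND, an AP-1 transcription factor, was the nearest, at a distance of 0.69, followed by GLYR1 at 0.99, FBXO34 at 1.02, H2AC12 at 1.31, BEND7 at 1.37, YTHDF2 at 1.52, PIAS3 at 1.62 and CLPTM1L at 1.63. JUND had 2853 normalised counts on the miR-491-5p beads, 36304 on the control beads, 1991 in the miR-491-5p input and 1810.4 in the control input. It shared the high control pull-down of SOCS6 but had nearly equal inputs, with an input ratio of 0.14.

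PIAS3 had closer matches than SOCS6. YTHDF2, a reader of m6A-modified RNA, was the nearest, at a distance of 0.20. It had 9733 normalised counts on the miR-491-5p beads, 52836 on the control beads, 10390 in the miR-491-5p input and 5164 in the control input. Like PIAS3 it was high in the control pull-down and low in the control input. ENSG00000225733 at 0.33, ENSG00000270246 at 0.38, C3orf52 at 0.40, BEND7 at 0.48, DCUN1D3 at 0.53, KAAG1 at 0.55 and AP1AR at 0.58 followed, and SOCS6 was 498th. The input ratio was above 0 in all 8, from 0.69 for BEND7 to 1.42 for C3orf52. Since the 8 were chosen by closeness to PIAS3 over libraries that include the inputs, this follows from the choice. These are likenesses over 4 libraries and carry no test.

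The genes beside SOCS6 and PIAS3 on the chromosome had lower control-bead values than they. As SOCS6 and PIAS3 were picked for high values there, this is a description only. The only measured gene within 500 kb of SOCS6 was RTTN, 83.0 kb to its left, with 0.49 over input on the miR-491-5p beads and 0.29 on the control beads. Around PIAS3 14 genes were measured. Among the near ones were POLR3C (6.02 kb) and RNF115 (24.4 kb) to the left and RBM8A (57.9 kb) to the right. On the miR-491-5p beads these had -0.70, -0.60 and -0.75, against -1.01, -0.23 and -0.95 on the control beads. None of the 14 was past 2-fold between the inputs, where they ran from -0.31 to 0.48.

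**Figure D4:**
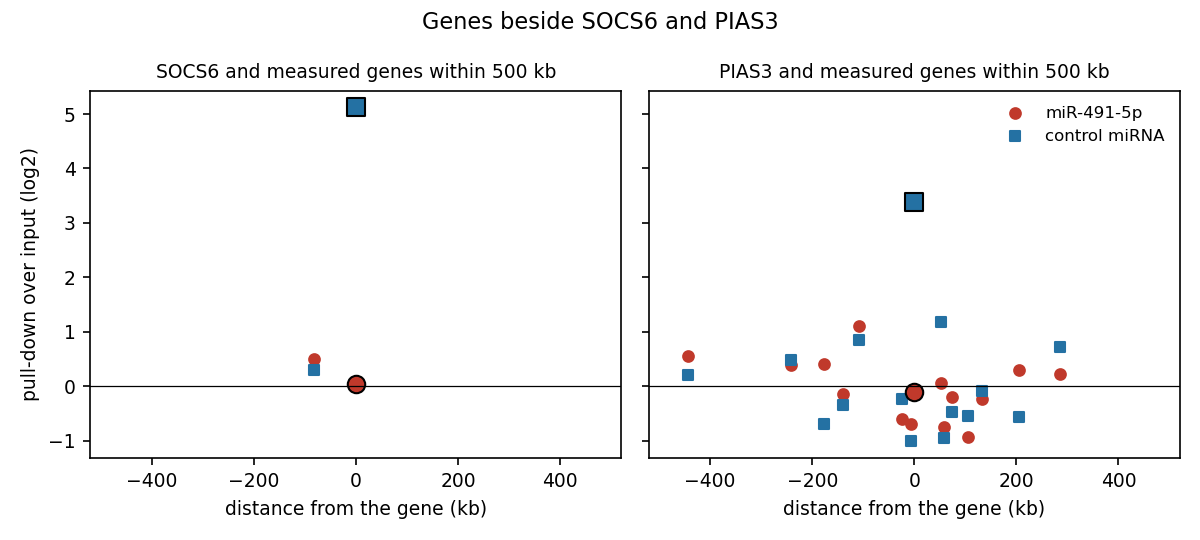
Log2 pull-down over input (y axis) of SOCS6 and PIAS3 (large symbols at 0) and of measured genes within 500 kb, by distance in kb, with circles for miR-491-5p and squares for the control miRNA. On the control beads SOCS6 has 5.13 and PIAS3 3.38, above every neighbour drawn, and RTTN has 0.29. SOCS6 and PIAS3 were picked for high values on these beads.

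The other genes of the pathway were taken from 12 lists of 124 genes, of which 95 were measured. In enrichment 3 of the 95 were higher (3.16%) and 4 lower (4.21%), near the 4.46% and 5.32% of all genes. The higher ones were ASB13, a SOCS-box adaptor, at 1.95, SENP2, a SUMO protease, at 1.60, and BCL2L1, a survival gene induced by STAT factors, at 1.27. The lower ones were ASB8, a further SOCS-box adaptor, at -2.01, IL13RA1, a receptor chain for IL-13, at -1.62, PIM3, a kinase gene among the STAT targets, at -1.33, and IGF1R at -1.04. With total counts these became 7 higher and 3 lower, and IGF1R was no longer past 2-fold. In the inputs 0 of the 95 genes were past 2-fold in either direction with either scaling, near the 0.727% and 0.513% of all genes.

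JAK1 had 1498 normalised counts on the miR-491-5p beads, 1480.4 on the control beads, 1207 in the miR-491-5p input and 1381 in the control input. STAT3, the factor that PIAS3 inhibits, had 15947, 13624, 21538 and 22112 in the same libraries. IL6ST, the shared receptor chain of the IL-6 family, had 16697, 26334, 25874 and 24237. JAK1 and STAT3 were near level between the transfections, with enrichments of 0.21 and 0.27, and IL6ST was low in the miR-491-5p pull-down, with -0.75. None of the 4 JAK kinases, 5 measured STAT factors and 4 measured phosphatases passed 2-fold with the size factors. With total counts 1 JAK kinase passed it in enrichment and in the pull-down ratio, and 1 STAT factor in enrichment. Of 15 measured cytokine receptors IL13RA1 and IL6R were past 2-fold on the control beads, at 1.09 and 1.06, where 8.61% of all genes were higher. IFNAR2, a chain of the type I interferon receptor, was named after its value was seen and had a pull-down ratio of -1.26. Of 7 receptor kinases and adaptors IGF1R and PIK3R1, a subunit of PI3 kinase, were past 2-fold on the control beads at 1.24 and 1.06, and IRS1, a docking protein of the insulin receptor, was past it on the miR-491-5p beads at 1.005, where 5.34% of all genes were higher.

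Over the 95 genes 7 were past 2-fold higher (7.37%) and 6 lower (6.32%) on the miR-491-5p beads, where all genes had 5.34% and 4.96%. On the control beads 8 were higher (8.42%) and 5 lower (5.26%), where all genes had 8.61% and 10.0%. With total counts 10 were higher and 1 lower on the miR-491-5p beads, and 13 and 2 on the control beads. Of the 10 genes of the ligase that the SOCS box recruits (elongins, cullins, RING proteins, and NEDD8 with its conjugating enzymes), 4 were lower on the miR-491-5p beads, led by the elongins ELOC at -1.47 and ELOB at -1.16 and the RING protein RBX1 at -1.11. On the control beads ELOB, UBE2M and RBX1 were lower, at -1.77, -1.21 and -1.005, and ARIH2 was higher at 1.01. The median of these 10 genes was -0.72 on the miR-491-5p beads and -0.64 on the control beads, where all genes had -0.15 on both. With total counts it was -0.40 and -0.50, and the genes called lower were 1 on the miR-491-5p beads and 2 on the control beads. The 6 SUMO conjugation genes had medians of -0.77 and -0.63, and among them SUMO2, a modifier, was lower on both beads, at -1.12 (miR-491-5p) and -1.045 (control). None of the 6 passed 2-fold with total counts. Of the ligands, CLCF1, of the IL-6 family, stood above its input on both beads, at 2.34 (miR-491-5p) and 2.27 (control), and LIF had 1.04 and 0.50. Among STAT targets, PIM3 was at 1.33 on the control beads and BCL6 at 1.25 on the miR-491-5p beads, where the SOCS-box gene RAB40C had 1.19.

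The lowest and the highest enrichment among the 95 genes belonged to ASB8 and ASB13. ASB8 had 1196 normalised counts on the miR-491-5p beads, 3450.1 on the control beads, 1394 in the miR-491-5p input and 996 in the control input, with -0.22 over input on the miR-491-5p beads and 1.79 on the control beads. It was highest in the control pull-down, as SOCS6 and PIAS3 were. ASB13 had 5725 on the miR-491-5p beads, 2263 on the control beads, 857 in the miR-491-5p input and 1308 in the control input, with 2.74 over input on the miR-491-5p beads and 0.79 on the control beads. SENP2, also highest in the miR-491-5p pull-down, had 1.56 on the miR-491-5p beads and -0.04 on the control beads.

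**Figure D5:**
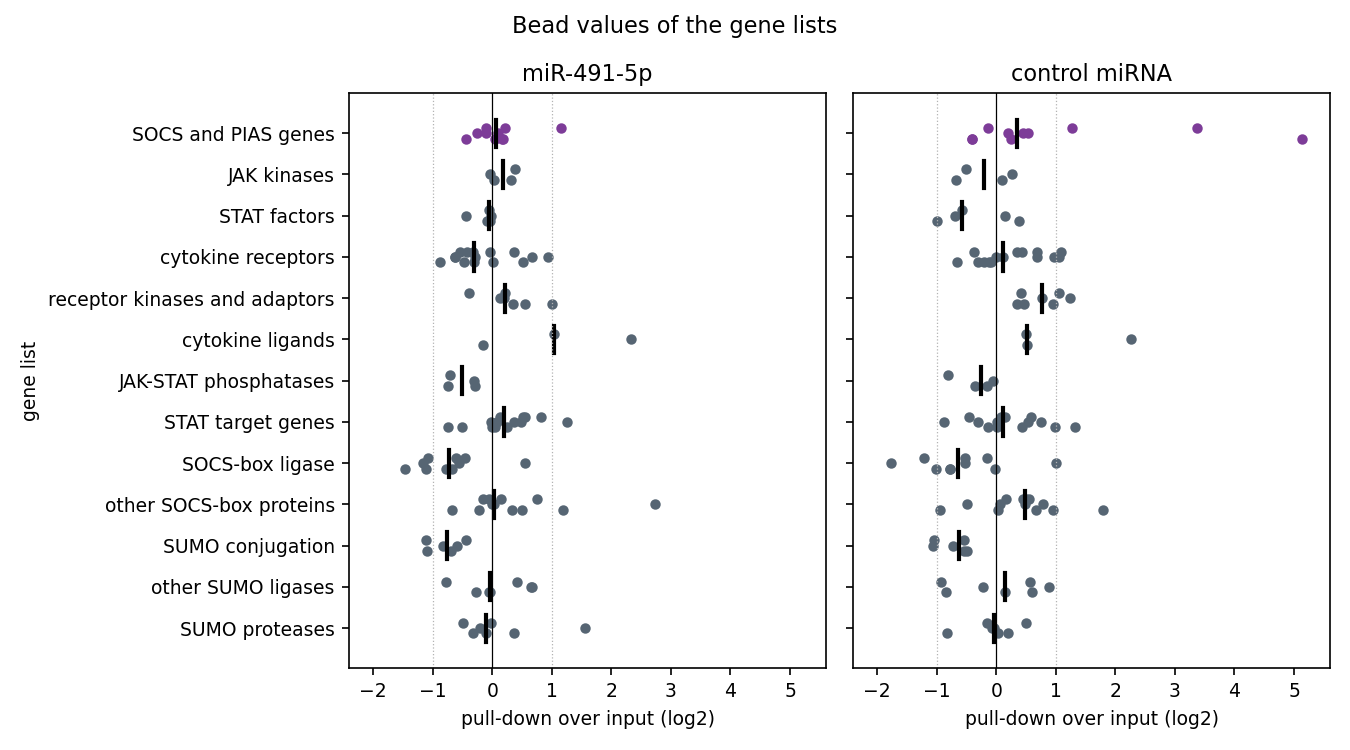
Log2 pull-down over input on the miR-491-5p beads (left) and the control beads (right) for the 10 SOCS and PIAS genes and the measured genes of 12 lists, with 1 point per gene, black bars for medians and dotted lines at 2-fold. On the control beads SOCS6 at 5.13 and PIAS3 at 3.38 lie above every listed gene, the highest of which is CLCF1 at 2.27. SOCS6 and PIAS3 were picked for high values here, so this is no contrast with the lists.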

How the data were processed

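Whole-number read counts per gene, as deposited by the authors, were the only measurement used. Per the file headers they were made with featureCounts 1.5.0-p1 on exons of GENCODE 24 and hg38, without strand, leaving out duplicates. The submitters' processing notes also name STAR, GRCh38 and DESeq2 1.10.1. Library totals were 61705443 on the miR-491-5p beads, 62582646 on the control beads, 59588552 in the miR-491-5p input and 47679684 in the control input. The exon length was also taken from the deposited table.

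Groups came from the sample titles. Counts were divided by DESeq2 1.42.0 size factors (1.24, 1.13, 0.957 and 0.778 in the order above), 1 was added, and log2 ratios were taken. Intervals are 1.96 counting standard errors, with 0.5 added to each count. The calculation was tested on simulated data. Genes whose normalised counts averaged under 50 were dropped, and the rest held 99.7% of counts. Gene names came from positions of RefSeq genes on GRCh38.p14, which named 11727 of 12662 genes. For near-identical gene copies such as H2AC12 the values are uncertain. SOCS2 was matched by the loosest step, an end within 500 bp. Planned comparisons of exon sequence and of proteins were not made here. Named genes were the 10 members, up to 3 genes per list and comparison past 2-fold, JAK1, STAT3 and IL6ST, the 8 genes most like SOCS6 and PIAS3, and the nearest neighbours. A few genes that this rule takes are not reported here. MAPKAPK3, CALML4 and NUDT17 were named for their overlap. The members, lists and rules were chosen with earlier results of these data known. Alternatives were edgeR 4.0.16 TMM, total counts, separate size factors, pseudocounts of 0.5 and 5, folds of 1.5 and 4, and minimums of 10 and 200.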

Additional observations from a re-analysis of the deposited data

Results flagged for a closer look

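Of the 10 genes, 3 lay on opposite sides of their input with the 2 miRNAs, with both intervals excluding 0, a pattern that 14.0% of all measured genes showed. Whether the miRNAs differ in this was not tested. SOCS4 had a pull-down over input of -0.26 (-0.30 to -0.21) with miR-491-5p and 0.53 (0.48 to 0.58) with the control miRNA. PIAS2 had -0.10 (-0.17 to -0.03) with miR-491-5p and 0.20 (0.13 to 0.27) with the control miRNA. With total counts the miR-491-5p values of SOCS4 and PIAS2 became 0.06 and 0.22, so the opposite signs depend on the scaling. PIAS4 ran the other way, at 0.16 (0.04 to 0.28) with miR-491-5p and -0.40 (-0.54 to -0.27) with the control miRNA. The median of all genes was -0.15 on both beads. Set against that median, PIAS2 lay above it with either miRNA, and SOCS4 and PIAS4 still lay on opposite sides.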

How the results depend on the processing

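No paired analysis was possible because each group has 1 library. At a 4-fold threshold 0 members were higher in enrichment, in the pull-down ratio, in the input ratio and on the miR-491-5p beads, against 1 each at 2-fold. At 1.5-fold 2 members were higher in the inputs, against 1. The other counts of members stayed within 1.5 times under TMM, total counts and the other settings tried. With the miR-491-5p input as denominator, chosen after the data had been seen, SOCS5 stood 1.11 higher on the control beads, and 3 members again passed 2-fold. Of 240 recomputed single values, 233 kept their sign, and the 7 that did not were all under total counts. These were the enrichment of SOCS2 and PIAS1 (0.14 and 0.12), the input ratio of SOCS7 (-0.02), the miR-491-5p bead values of SOCS4, PIAS2 and PIAS3, and the control bead value of CISH (0.00). In size, 34 of the 240 moved past their counting interval, all under total counts or with the miR-491-5p input as denominator. Among them was the enrichment of SOCS6, at -4.91 with total counts. Counts over all genes depended more on the settings. With total counts 896 were higher and 447 lower in enrichment (565 and 673 with size factors), 532 and 262 in the pull-downs (316 and 402), 1314 and 130 on the miR-491-5p beads (676 and 628), and 821 lower on the control beads (1268). With a minimum of 10, 1094 were higher and 1137 lower in enrichment, 823 and 807 in the pull-downs, 409 and 366 in the inputs (92 and 65), 2098 were higher on the miR-491-5p beads and 2480 on the control beads (1090). With a minimum of 200, 355 were higher in enrichment, 180 in the pull-downs, 325 on the miR-491-5p beads and 696 on the control beads, and 30 were higher and 23 lower in the inputs. The filter changes which genes are counted, and the cause of the other shifts was not tested. Depth limits CISH most, since its lowest library held 41 reads.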
